A study of Homo sapiens with 17 samples.

Results

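The 10 genes described here encode the human factors that detect collided ribosomes and clear stalled ones: ZNF598, EDF1, GIGYF2, ASCC3, ASCC2, PELO, HBS1L, LTN1, NEMF and TCF25. They were chosen by name for what they do. Each was represented by its transcript with the highest summed count at a time point. All 10 were matched at 72 h, among 17023 genes with any count, and 9 at 36 h, among 15660. No transcript listed at 36 h was matched to ZNF598, which was therefore not analysed here at that time.

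When a ribosome halts on an mRNA, the one behind it runs into it, and the joined small subunits form the surface that marks a stall. ZNF598 ubiquitinates small-subunit proteins at that surface, EDF1 binds there and recruits GIGYF2, which represses new initiation on the message, and the helicase ASCC3 with its partner ASCC2 pulls the leading ribosome apart. PELO with the GTPase HBS1L opens ribosomes whose decoding site is empty, and on the released large subunit NEMF holds the stranded peptide for the ubiquitin ligase LTN1, which works with TCF25.

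The libraries came from HEK293, an established human embryonic kidney line, electroporated with Cas9 or with dCas9, a Cas9 that binds DNA without cutting it. Both nucleases carried the same guide, sgIntron, which targets intron 12 of JAK2. Cas9 cells thus received a double-strand break at a non-coding site, and dCas9 cells the inactive form of the protein with the same guide and no break. Ribosome footprints (mRNA pieces shielded by ribosomes) and mRNA from rRNA-depleted RNA were sequenced 36 and 72 h later. At 36 h there were 2 Cas9 (a, c) and 2 dCas9 (d, e) footprint libraries and 3 Cas9 (a, b, c) and 2 dCas9 (d, e) mRNA libraries; at 72 h each nuclease had 2 footprint (e, f) and 2 mRNA (a, b) libraries. Guides were synthetic at 36 h and transcribed in vitro at 72 h. A replicate was a plate that pooled several electroporations of a single line, so the tests measure the spread between plates. The Cas9 footprint libraries of 72 h are titled rcas9 and were assigned by their treatment label.

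Total counts ran from 689636 (dCas9 e) to 4868580 (dCas9 d) in the footprint libraries of 36 h, from 3183555 to 8864466 in those of 72 h, and from 25095505 to 42825664 in the mRNA libraries. Of the markers of HEK293 cells, VIM, NEFL, CDH2 and NEFM were present in every library (NEFM at 2.60 to 25.1 CPM, counts per library scaled to a common size), NES was low at 0 to 4.93 CPM, and PAX2 stayed at or below 2.01 CPM. ALB, PTPRC and KRT5, which mark other cell types, did not exceed 0.732 CPM where listed, HBB was not among the matched genes, and the fibroblast gene COL1A1 was present at 3.45 to 26.1 CPM. JAK2 mRNA was found in every library at 4.25 to 11.02 CPM and its footprints numbered 0 to 23 a library, too few to test. The mRNA libraries differed with base composition: at 72 h the log2 difference between dCas9 replicates a and b followed the share of G and C in the coding sequence (Spearman's rho 0.83 over 10856 genes, which are not independent points). No 2 libraries of a group agreed within sampling noise.

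The 10 genes differed widely in GC content, from 39.4% in NEMF and 39.7% in LTN1 over 40.4% in ASCC3, 42.3% in HBS1L, 49.0% in GIGYF2, 55.3% in PELO, 55.5% in ASCC2, 58.1% in EDF1 and 59.4% in TCF25 to 66.6% in ZNF598. Coding stretches of LTN1 and ZNF598 show how far apart they are. Each is the middle 120 bases of the longest coding exon, exon 10 of LTN1 (chr21:28966715-28966834, minus strand) and exon 11 of ZNF598 (chr16:1999817-1999936, minus strand) on hg38, printed 5′ to 3′ with G and C in capitals. The first holds 39.2% and the second 73.3% G or C.
LTN1: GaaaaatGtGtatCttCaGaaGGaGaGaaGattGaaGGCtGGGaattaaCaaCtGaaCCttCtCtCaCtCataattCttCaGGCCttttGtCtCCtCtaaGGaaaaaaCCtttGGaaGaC
ZNF598: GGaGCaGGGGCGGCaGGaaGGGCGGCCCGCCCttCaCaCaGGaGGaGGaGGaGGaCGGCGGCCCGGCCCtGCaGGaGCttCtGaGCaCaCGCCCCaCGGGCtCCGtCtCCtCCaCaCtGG

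The genes lie on 8 chromosomes of hg38. The factors that gather at collided ribosomes are ZNF598 (chr16:1997654-2009821, minus strand, 14 coding exons), EDF1 (chr9:136862119-136866308, minus strand, 5 coding exons) and GIGYF2 (chr2:232697299-232860605, plus strand, 27 coding exons). ASCC3 (chr6:100508194-100881372, minus strand, 41 coding exons) is the longest, with 2202 coding codons, and ASCC2 (chr22:29788609-29838304, minus strand, 19 coding exons) has 757. The splitting pair is PELO (chr5:52787916-52804044, plus strand), whose 385 codons lie in 2 exons, and HBS1L (chr6:134960378-135103056, minus strand, 18 coding exons). The large-subunit factors are LTN1 (chr21:28928144-28992956, minus strand, 30 coding exons), NEMF (chr14:49782083-49852821, minus strand, 33 coding exons) and TCF25 (chr16:89873570-89913627, plus strand, 18 coding exons). A stretch of 300 coding bases of NEMF overlaps KLHDC2 on the opposite strand. Shorter overlaps with annotated lncRNAs cover 140 coding bases of ZNF598, 112 of GIGYF2 and 91 of TCF25, the last on the same strand, and whether the counting used strand is not given in the sources used here.

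Levels were compared between genes as CPM per kilobase of counted coding length. EDF1, the small protein that binds collided ribosomes, stood far above the rest in every library. In dCas9 cells at 72 h its footprint level was 479 ± 9.20 (SD, n = 2), the 96.5th percentile of the 10896 genes tested, and its mRNA level was 793 ± 66.4. NEMF and LTN1, which act together on the large subunit, were the 2 lowest members in footprints and in mRNA in dCas9 cells at both time points. At 72 h their footprint levels in dCas9 cells were 12.98 ± 0.497 and 16.97 ± 0.271 and their mRNA levels 17.3 ± 4.22 and 17.1 ± 5.22 (n = 2 each).

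The footprint order in dCas9 cells at 72 h was EDF1, PELO (43.9 ± 1.88), TCF25 (40.2 ± 0.232), ZNF598 (37.5 ± 0.0948), GIGYF2 (31.2 ± 1.63), HBS1L (29.9 ± 3.50), ASCC2 (23.6 ± 2.43), ASCC3 (19.8 ± 0.357), LTN1 and NEMF (SD, n = 2). GIGYF2 and HBS1L overlapped, and the other neighbours in the order did not. The mRNA order began with EDF1 and HBS1L (86.6 ± 13.7), followed by ZNF598 (57.2 ± 5.90), TCF25 (55.8 ± 6.43), ASCC3 (38.3 ± 8.33), PELO (34.4 ± 5.27), GIGYF2 (33.7 ± 1.21) and ASCC2 (28.5 ± 1.16). Here ZNF598 and TCF25, ASCC3 and PELO, PELO and GIGYF2, and NEMF and LTN1 overlapped. At 36 h the order was alike at both ends, with EDF1 at 481 ± 34.1 in footprints and 976 ± 144 in mRNA, but most neighbours between the extremes overlapped.

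**Figure D1:**
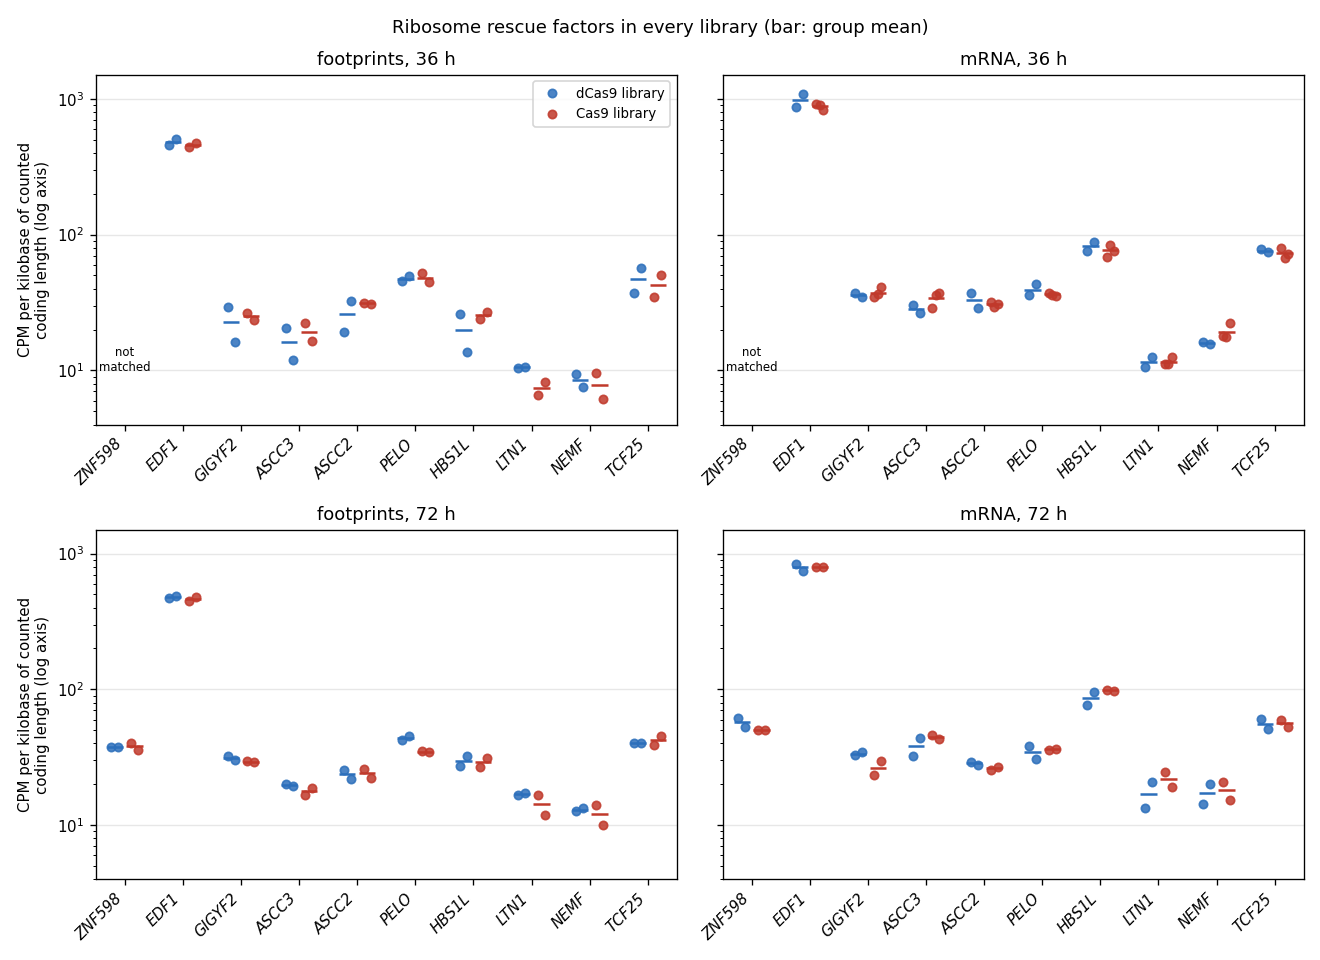
Level of each rescue factor in every library, as CPM per kilobase of counted coding length on a log axis, with 1 point per library, dCas9 in blue, Cas9 in red and the group mean as a bar. EDF1 lies far above the others in all 4 panels, HBS1L stands higher in mRNA than in footprints, and the Cas9 and dCas9 points of most genes intermingle.

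The clearest pattern among partners was in the pair that splits ribosomes. PELO and HBS1L act as a complex, and their messages were present at unlike levels: per kilobase, PELO mRNA was 0.319 to 0.541 of HBS1L mRNA in the 9 mRNA libraries, with a median of 0.466. In the 8 footprint libraries the order was the other way, with PELO at 1.11 to 3.64 of HBS1L and a median of 1.60. The ranges did not overlap.

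HBS1L carried few footprints for its mRNA. Its footprint CPM divided by its mRNA CPM was 0.333 in Cas9 and 0.241 in dCas9 cells at 36 h, and 0.296 and 0.346 at 72 h (ratios of group means), at the 2.85th to 8.49th percentile of the genes tested. No other member had a lower ratio in any of these 4 groups. PELO had ratios of 1.33, 1.20, 0.957 and 1.28 in the same order, at the 56.7th to 74.8th percentile. The median gene lay between 0.856 and 0.880.

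Within a 36 h lysate the ratio of HBS1L was 0.344 in Cas9 a, 0.356 in Cas9 c, 0.340 in dCas9 d and 0.155 in dCas9 e, where its footprints numbered 18. NEMF was below HBS1L in Cas9 c, at 0.273. Over all genes tested the ratio rose with GC content (rank correlation 0.29 to 0.42 in the 4 groups). The members with less G and C than HBS1L were ASCC3, LTN1 and NEMF. Their ratios by group were 0.398 to 0.575, 0.640 to 0.992 and 0.404 to 0.752. So few genes cannot show how far base composition sets the ratio of HBS1L or of the other members, which was not tested. At 36 h 1 HBS1L transcript was listed, and at 72 h there were 8, of which the 684-codon transcript used had 171 to 569 footprints and 5284 to 8174 mRNA counts. Reads that fit several of them were counted on each.

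The other partners differed less between the library types. ASCC2 was 0.925 to 2.73 of ASCC3 in footprints and 0.557 to 1.23 in mRNA, and NEMF was 0.715 to 1.45 of LTN1 in footprints and 0.804 to 1.79 in mRNA. EDF1 was 14.6 to 31.4 times GIGYF2 in footprints and 20.2 to 34.1 times in mRNA. TCF25 was 2.34 to 6.14 times LTN1 in footprints and 2.41 to 7.40 times in mRNA. Over both time points together these ranges overlapped. At 72 h alone, ASCC2 was 1.12 to 1.55 of ASCC3 in footprints and 0.557 to 0.904 in mRNA, which did not overlap. EDF1 at 72 h was 14.6 to 16.4 times GIGYF2 in footprints and 21.6 to 34.1 times in mRNA, again without overlap. NEMF and TCF25 against LTN1 still overlapped at 72 h. ZNF598 against GIGYF2, measured at 72 h only, ran from 1.16 to 1.37 in footprints and from 1.54 to 2.14 in mRNA. The levels of ZNF598 rest on the 830 codons counted at 72 h, while its transcript has 904 coding codons in GENCODE 44, and a longer length would lower them alike in both library types.

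**Figure D2:**
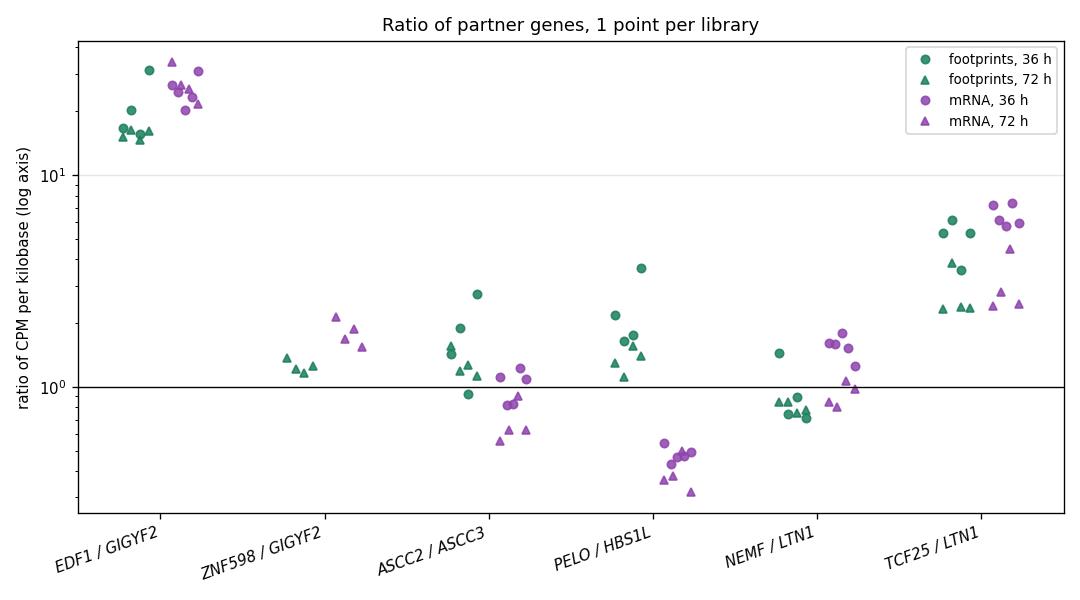
Ratio of the levels of partner genes (CPM per kilobase, log axis) with 1 point per library, footprints in green and mRNA in purple, 36 h as circles and 72 h as triangles. All 8 footprint points of PELO over HBS1L lie above 1 and all 9 mRNA points at or below 0.541, while the points of ASCC2 over ASCC3, NEMF over LTN1, EDF1 over GIGYF2 and TCF25 over LTN1 overlap between the library types.

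Whether a break changes the use of these genes was asked by comparing Cas9 with dCas9 in each library type, and by comparing footprints with mRNA (translational efficiency). Of the members tested, 9 at 36 h and 10 at 72 h, none passed a false discovery rate of 0.1 in any comparison, in the quasi-likelihood test of edgeR with adjustment by Benjamini and Hochberg or in DESeq2. At an unadjusted p under 0.05, edgeR gave 0 of 9 members for footprints, 2 for mRNA and 0 for translational efficiency at 36 h, where 2.09%, 4.68% and 6.3% of all genes had such a p. At 72 h it gave 2, 1 and 1 of 10, beside 3.83%, 14.8% and 11.2%. In bulk samples fewer cells with a message and less of it per cell cannot be told apart.

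**Figure D3:**
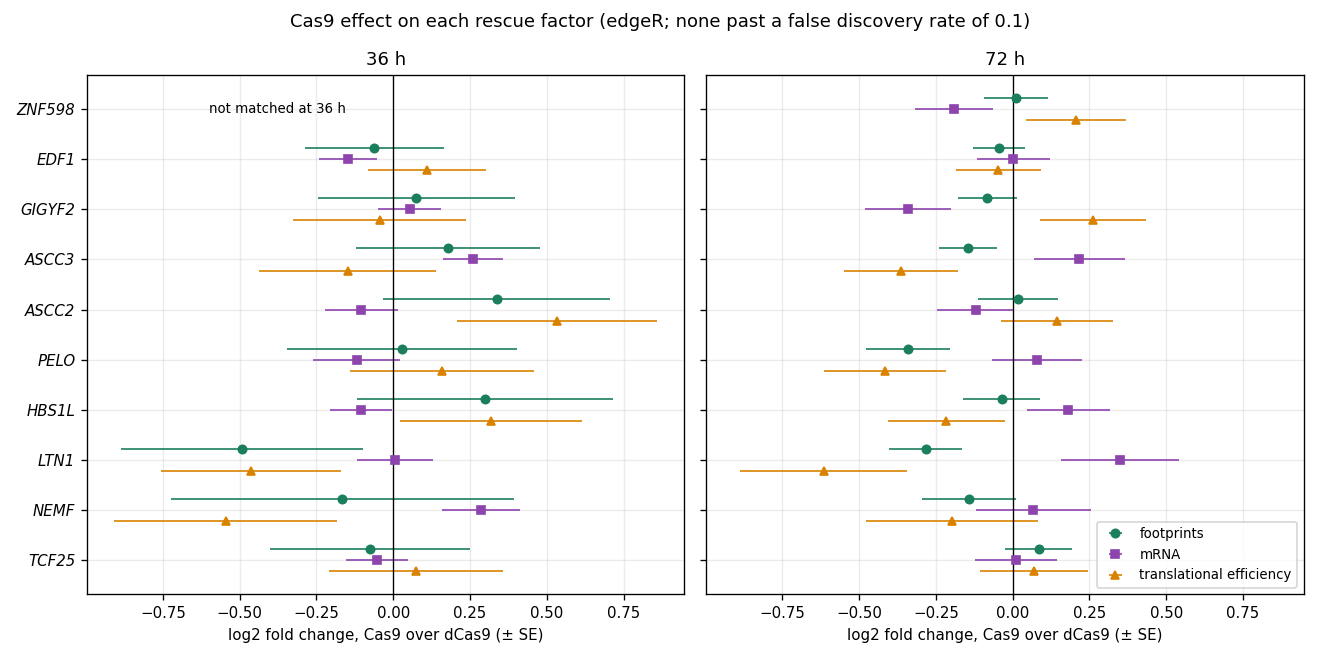
Log2 fold change of each rescue factor, Cas9 over dCas9, with its standard error, for footprints (green circles), mRNA (purple squares) and translational efficiency (orange triangles) at 36 h and 72 h. Bars are widest for footprints at 36 h, and at 72 h LTN1 shows the widest distance between footprints and mRNA.

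At 36 h the footprint counts were low and the errors wide. The 9 members had log2 fold changes of -0.49 to 0.34 with standard errors of 0.23 to 0.56 and a median of 0.028, against a median of 0.0099 over all 9016 genes. None was called, as was 0.0% of all genes (188 genes had an unadjusted p under 0.05 in edgeR, and DESeq2 called 0). LTN1 was the 1 member whose groups did not overlap, as was the case for 30.5% of all genes (14.6% with Cas9 lower). Its footprints were at 34.4 and 43.2 CPM in Cas9 cells (32 and 107 counts) and at 54.7 and 55.6 CPM in dCas9 cells (271 and 37 counts), a log2 fold change of -0.49 ± 0.39 (SE; edgeR adjusted p = 0.999). Both Cas9 libraries were thus below both dCas9 libraries.

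The other differences in footprints at 36 h rested on single libraries. ASCC2 had 69.8 and 68.6 CPM in Cas9 cells and 42.2 and 72.2 CPM in dCas9 cells, a log2 fold change of 0.34 ± 0.37, which became -0.065 without dCas9 d. HBS1L had 47.3 and 54.1 CPM in Cas9 cells and 51.7 and 27.1 CPM in dCas9 cells, a log2 fold change of 0.30 ± 0.42 that became -0.019 without dCas9 e. For both genes 1 dCas9 library stood low and the other lay among or near the Cas9 values. EDF1, PELO, TCF25, GIGYF2, NEMF and ASCC3 had groups that overlapped.

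In mRNA at 36 h, NEMF and ASCC3 had the highest differences. NEMF was at 56.7, 56.1 and 71.0 CPM in Cas9 and at 50.9 and 49.6 CPM in dCas9 cells, with every Cas9 library above both dCas9 libraries and a log2 fold change of 0.29 ± 0.13 (edgeR adjusted p = 0.999). It was the 1 of 9 members whose groups did not overlap, as in 16.9% of all genes (8.6% with Cas9 higher). Without Cas9 c, the highest, the value was 0.17. ASCC3 was at 189, 235 and 242 CPM in Cas9 and at 197 and 174 CPM in dCas9 cells, so Cas9 a lay between the dCas9 libraries, and its log2 fold change was 0.26 ± 0.10 (edgeR adjusted p = 0.937). That became 0.17 without dCas9 e. None of the 9 was called, beside 0.0222% of all genes, and the other 7 lay between -0.15 and 0.05.

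Translational efficiency at 36 h had no member among its calls (0.0% of all genes). DESeq2 called 1 gene of 9016, no member, and 568 genes had an unadjusted p under 0.05 in edgeR. ASCC2 had a log2 value of 0.53 ± 0.33, HBS1L of 0.32 ± 0.30, LTN1 of -0.46 ± 0.29 and NEMF of -0.55 ± 0.36, with edgeR adjusted p of 0.837, 0.906, 0.842 and 0.851. With 1 library left out, ASCC2 ran from 0.036 to 0.83, HBS1L from 0.12 to 1.03, LTN1 from -0.66 to -0.35 and NEMF from -0.83 to -0.18. The GC correction gave 0.51, 0.45, -0.29 and -0.36 in the same order. The footprint library dCas9 e held between 16 (NEMF) and 129 (EDF1) counts for the 9 members.

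At 72 h, with deeper footprint libraries, PELO footprints were lower in Cas9 cells. They were at 38.3 and 38.0 CPM in Cas9 cells (122 and 224 counts) and at 46.8 and 49.7 CPM in dCas9 cells (314 and 437 counts). The groups did not overlap, and each pair of replicates lay closer together than the groups did. The edgeR log2 fold change was -0.34 ± 0.14 (edgeR unadjusted p = 0.018, adjusted p = 1.00), and it stayed between -0.38 and -0.29 with any 1 library left out. DESeq2 gave -0.34 ± 0.19 (DESeq2 unadjusted p = 0.069). PELO mRNA was at 39.5 and 40.3 CPM in Cas9 cells, between the dCas9 values of 41.9 and 33.7 CPM.

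LTN1 footprints at 72 h were at 89.3 and 64.1 CPM in Cas9 and at 90.2 and 92.3 CPM in dCas9 cells. Cas9 e lay just under the dCas9 libraries and Cas9 f well below them. The log2 fold change was -0.28 ± 0.12 (edgeR unadjusted p = 0.023) and did not pass after adjustment. DESeq2 gave -0.27 ± 0.16 (DESeq2 unadjusted p = 0.096). The edgeR value came to -0.033 without Cas9 f and to -0.51 without Cas9 e, each a fit with 1 Cas9 library.

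In all, 4 of the 10 members had footprint groups that did not overlap at 72 h, each lower with Cas9: PELO, LTN1, ASCC3 and GIGYF2. Over all genes that share was 31.7%, and 15.9% with Cas9 lower. ASCC3, the helicase, was at 109 and 123 CPM against 131 and 128 CPM, and GIGYF2 at 114 and 113 CPM against 124 and 116 CPM. The 10 log2 fold changes had a median of -0.063, against 0.0018 over all genes, standard errors of 0.085 to 0.15, and 3 values above 0. No member was called, beside 0.0367% of all genes.

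Among mRNAs at 72 h, GIGYF2 had the lowest value. Its mRNA was at 89.9 and 114 CPM in Cas9 cells and at 126 and 133 CPM in dCas9 cells, both Cas9 libraries below both dCas9 libraries. The log2 fold change was -0.34 ± 0.14 (unadjusted p = 0.031; edgeR adjusted p = 0.292). It was -0.18 without Cas9 a, the lower Cas9 library, and -0.53 without Cas9 b. Genes with 45 to 50% GC, as GIGYF2 has, had a median of 0.05 and quartiles of -0.12 and 0.17 (2020 genes). With each library corrected for GC content the value was -0.33 ± 0.09, which edgeR called (adjusted p = 0.038), the 1 member so called.

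That correction moved the calls over all genes at 72 h from 3 higher and 290 lower (2.69% of genes) to 1015 higher and 1395 lower. With 1 library left out they ran from 0 higher and 5 lower without Cas9 a to 1726 and 1102 without dCas9 b. The groups of 4 members did not overlap, HBS1L higher with Cas9 and GIGYF2, ZNF598 and ASCC2 lower, against 49.6% of all genes (24.4% higher and 25.2% lower with Cas9). ZNF598, which ubiquitinates the small subunit, was at 125 and 125 CPM in Cas9 and at 153 and 132 CPM in dCas9 cells, a log2 difference of -0.19, and -0.11 after the correction.

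The 2 dCas9 mRNA libraries of 72 h differed for the members low in G and C. The log2 difference of dCas9 a and b was -0.63 for LTN1, -0.50 for NEMF, -0.45 for ASCC3 and -0.32 for HBS1L, and it was 0.21 for ZNF598, 0.23 for TCF25 and 0.31 for PELO, so the printed stretches of LTN1 and ZNF598 belong to genes that moved in opposite directions between these replicates. All genes with 35 to 40% GC had a median of -0.58. LTN1 mRNA was at 132 and 102 CPM in Cas9 cells and at 72.2 and 112 CPM in dCas9 cells, so dCas9 a was lowest and dCas9 b lay between the Cas9 libraries. Its log2 fold change was 0.35 ± 0.19 (edgeR adjusted p = 0.412), 0.067 without dCas9 a, 0.70 without dCas9 b (edgeR adjusted p = 0.027) and 0.15 with the GC correction.

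ASCC3 mRNA showed the same arrangement, at 302 and 282 CPM against 213 and 290 CPM, with a log2 fold change of 0.22 ± 0.15 that was 0.011 without dCas9 a, 0.46 without dCas9 b and 0.036 with the GC correction. Without dCas9 b, ASCC3, HBS1L, LTN1 and ZNF598 were called, along with 1726 higher and 1102 lower of the 10896 genes. HBS1L mRNA was at 199 and 193 CPM in Cas9 cells and at 153 and 192 CPM in dCas9 cells, and its log2 difference of 0.18 became 0.048 with the GC correction.

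**Figure D4:**
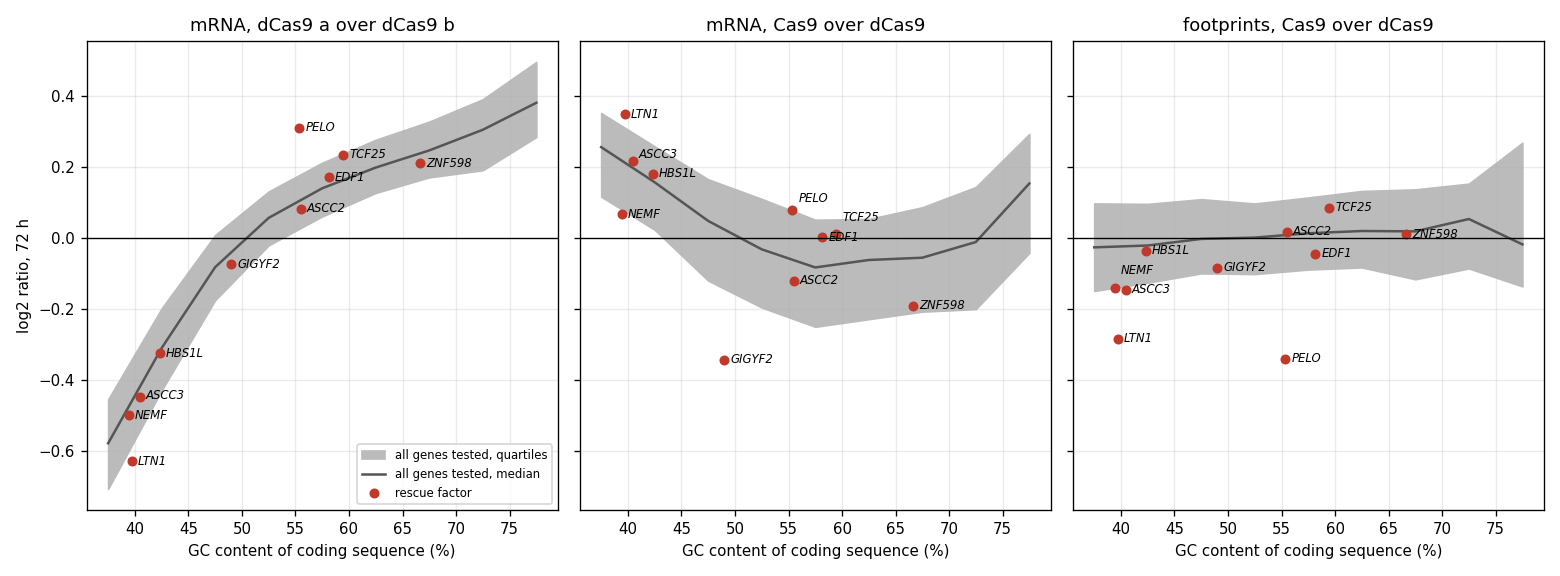
GC content of the coding sequence against 3 log2 ratios at 72 h, dCas9 a over dCas9 b in mRNA, Cas9 over dCas9 in mRNA and Cas9 over dCas9 in footprints, with the rescue factors in red and the median and quartiles of all genes tested in 5% bins of at least 20 genes in grey. In the first panel the members follow the rise of all genes, in the second GIGYF2 lies farthest below the grey band, and in the third PELO and LTN1 do.

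For translational efficiency at 72 h, LTN1 had the lowest value of the members, -0.62 ± 0.27 on the log2 scale (unadjusted p = 0.038; edgeR adjusted p = 0.412). PELO followed at -0.42 ± 0.20 (edgeR adjusted p = 0.458), ASCC3 at -0.36 ± 0.19, HBS1L at -0.22 ± 0.19, ZNF598 at 0.21 ± 0.16 and GIGYF2 at 0.26 ± 0.17. No member was called, beside 0.716% of all genes, and the median of the 10 was -0.12 against 0.0010 over all genes. With the GC correction LTN1 came to -0.42 and ASCC3 to -0.15, while PELO came to -0.52 ± 0.15 and was called (edgeR adjusted p = 0.083), and the calls over all genes went from 76 higher and 2 lower to 420 and 110.

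Leaving out mRNA of dCas9 b called LTN1 at -0.93 and ASCC3 at -0.55, when 592 of the 10896 genes were called higher and 473 lower, and leaving out dCas9 a gave -0.36 and -0.17. Without footprints of Cas9 f, LTN1 was at -0.37. PELO was at -0.22 without dCas9 b and at -0.59 without dCas9 a. HBS1L ran from -0.34 to -0.072, ZNF598 from 0.085 to 0.36 and GIGYF2 from 0.11 to 0.47 with 1 library left out, and the GC correction gave -0.057, 0.11 and 0.26. LTN1 was also called with no count minimum (-0.62, edgeR adjusted p = 0.069), when 223 of 17023 genes were called higher and 37 lower.

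Whether the Cas9 effect differed between 36 and 72 h was tested for the 9 members measured at both. None passed, for mRNA beside 0.613% and for footprints beside 0.0% of 8970 genes. At an unadjusted p under 0.05 edgeR gave 1 member for mRNA and 0 for footprints, beside 11.9% and 3.2% of all genes, and DESeq2 called no member. GIGYF2 mRNA had an effect that was lower by 0.41 ± 0.17 on the log2 scale at 72 h (difference -0.41, unadjusted p = 0.032; edgeR adjusted p = 0.371), and LTN1 mRNA had a difference of 0.33 ± 0.25, which was 0.70 and called without dCas9 b of 72 h (edgeR adjusted p = 0.095; 78 genes higher and 93 lower) and 0.071 without dCas9 a of 72 h. The GIGYF2 difference ran from -0.59 to -0.23 with 1 library left out. HBS1L mRNA differed by 0.27 ± 0.17 and NEMF mRNA by -0.23 ± 0.25. LTN1 footprints, lower with Cas9 at both times, differed by 0.21 ± 0.32, and PELO footprints by -0.37 ± 0.31. The LTN1 transcript used was not the same at both times, with 1746 counted codons at 36 h and 1793 at 72 h. Footprints of ASCC2 differed by -0.37 ± 0.36, of ASCC3 by -0.28 ± 0.32 and of HBS1L by -0.28 ± 0.37. Guide synthesis, aligner and annotation changed with the time point, so their parts and that of time cannot be told apart.

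Of 51 other genes of the pathway, 50 were tested at 36 h and 51 at 72 h. The 1 that passed in any comparison was USP21, a deubiquitinase of small-subunit proteins. It passed for mRNA at 72 h, where 2.69% of all genes did. USP21 mRNA at 72 h was 22.5 ± 0.575 CPM in Cas9 and 34.4 ± 1.32 CPM in dCas9 cells (SD, n = 2 each). The log2 fold change was -0.61 ± 0.13 (edgeR adjusted p = 0.060). Both Cas9 libraries lay below both dCas9 libraries, as in 25.2% of all genes. DESeq2 and the GC correction called it as well (-0.61, adjusted p = 0.015, and -0.51, adjusted p = 0.013). The call was lost with either Cas9 library left out (edgeR adjusted p = 1.00 without a and 0.216 without b), while the value stayed between -0.65 and -0.57 with any 1 library left out. USP21 mRNA at 36 h had a log2 fold change of -0.057 ± 0.12, and the difference between the time points, -0.56 ± 0.17, did not pass (edgeR adjusted p = 0.226).

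For mRNA at 72 h, 6 of the 51 were higher and 6 lower with the GC correction (1015 and 1395 of all 10896 genes), 13 and 3 without dCas9 b (1726 and 1102), and 0 and 3 without dCas9 a (20 and 484). In the other comparisons edgeR as described called 0 of the 50 or 51. With the GC correction 2 were called higher and 1 lower for translational efficiency at 72 h (420 and 110 of all 10896 genes). For the mRNA difference between the time points it called 2 lower (108 higher and 435 lower of all 8970 genes). Some were also called where a fit left 1 library in a group, beside larger numbers over all genes. By edgeR's unadjusted p under 0.05 there were 4 for footprints, 0 for mRNA and 5 for translational efficiency at 36 h, beside 2.09%, 4.68% and 6.3% of all genes, and 4, 9 and 7 at 72 h, beside 3.83%, 14.8% and 11.2%. The genes with the smallest adjusted p were NPLOC4, a cofactor of the VCP extraction machine, for footprints at 36 h (-0.75 ± 0.31) and for the footprint difference between the time points (0.80 ± 0.27). They were ANKZF1, which frees peptides from tRNA, for mRNA at 36 h (-0.29 ± 0.15), and RNF10, a ligase of small-subunit proteins, for translational efficiency at 36 h (0.77 ± 0.25). At 72 h they were GIGYF1, the paralogue of GIGYF2, for footprints (0.46 ± 0.16) and RNF14, a ligase that acts on stalled elongation factors, for translational efficiency (-0.68 ± 0.20). The medians of this list were -0.10, -0.017 and -0.070 at 36 h and -0.0093, -0.0077 and -0.0051 at 72 h, in the order footprints, mRNA and translational efficiency.

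The genes whose pattern was most like each of the 9 members measured at both time points (all but ZNF598) were sought among 8969 genes by Pearson's r over the 17 libraries, on log2 CPM centred within each time point and library type, as a description of points that share depth and base composition. They were TRIP11 for NEMF (r = 0.89; 37.7% GC), NDC80 for LTN1 (0.91; 39.3%), CDC40 for HBS1L (0.95; 42.1%), CPD for ASCC3 (0.94; 47.1%) and DROSHA for GIGYF2 (0.94; 48.0%). For the members richer in G and C they were LY6E for PELO (0.86; 61.1%), MTSS2 for ASCC2 (0.92; 66.3%), COA3 for EDF1 (0.88; 61.3%) and DVL1 for TCF25 (0.96; 65.9%). Among the members, ASCC3 and HBS1L had the highest r (0.68) and ASCC3 and TCF25 the lowest (-0.77). The working partners PELO and HBS1L had an r of -0.10, ASCC3 and ASCC2 of -0.43, and LTN1 and NEMF of 0.48.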

How the data were processed

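Ribosome footprints and mRNA of HEK293 cells that had received Cas9 or dCas9 RNPs were sequenced, 17 libraries in all. No footprint library of Cas9 replicate b (36 h) was analysed. The authors aligned reads with hisat2 (GENCODE 22) at 36 h and tophat (GENCODE 25) at 72 h; the labels name HISAT2 2.1.0 and GRCh38. They deposited raw counts of reads per transcript, made with fp-count, beside the counted coding length in codons. A read fitting several transcripts is counted on each. The counts are not normalized.

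Transcripts were matched by identifier to GENCODE 44 on hg38, which carried 96.3% of the counts at 36 h and 95.8% at 72 h and gave coordinates, GC content and sequences. Genes needed a mean count of 20 in the footprint and in the mRNA libraries, leaving 9016 at 36 h and 10896 at 72 h. CPM divide by the library total over these genes times its TMM factor. For the cell type markers and JAK2, CPM divide by the library total over all genes with any count, without a TMM factor. Cas9 and dCas9 were compared in edgeR 4.0.16 (R 4.3.3; quasi-likelihood, TMM, Benjamini-Hochberg, false discovery rate 0.1), each library type alone, translational efficiency as the interaction of nuclease and library type, and the time points by an interaction with time. Standard errors come from the fold change and the F statistic. Alternatives used DESeq2 1.42.0, limma 3.58.1 (voom), other filters, transcripts and corrections, and leaving out each library. The GC correction entered, for each library, a lowess curve of log counts on GC content as an offset. The fitting code was tested on simulated data.

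The paper states that each lysate served both library types, at 72 h as at 36 h. The letters of 72 h do not show which libraries share a lysate, so none were paired there. At 36 h the letters pair footprints and mRNA. Deviations of paired libraries correlated at 0.059 (Cas9) and 0.013 (dCas9), and the replicate block on lysates left 0 members called, as without it.

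The members and lists were chosen with earlier results of these data known. All members are named, with fold changes for those of at least 0.2 (log2) or an unadjusted p under 0.05 and for ZNF598 and HBS1L mRNA at 72 h. Of the other pathway genes, those past the threshold or the 1 with the smallest adjusted p (ties by p) are named for each comparison. The most similar gene of each member and JAK2 complete the rule.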

Additional observations from a re-analysis of the deposited data

How the results depend on the processing

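The number of members called was 0 in all 8 comparisons and stayed 0 in 48 of 52 settings other than the removal of 1 library. It was 1 for mRNA at 72 h with the GC correction (GIGYF2), and 1 for translational efficiency at 72 h with the GC correction (PELO), with no count minimum (LTN1) and with the crossed letters of mRNA as replicate block (LTN1). Leaving out 1 library gave 0 to 1 members for footprints at 72 h, 0 to 4 for mRNA at 72 h, 0 to 2 for translational efficiency at 72 h and 0 to 1 for the mRNA difference between the time points; the highest counts came without dCas9 b, and for footprints without Cas9 e. Signs were followed for 37 log2 fold changes. These were member values of at least 0.2 in size or with an edgeR unadjusted p under 0.05, and those of the other pathway genes named. Smaller values, which turn more easily, were left out. None of the 37 turned in the 241 other settings, and 5 did in 253 with 1 library left out. They were ASCC2 (-0.065 to 0.71) and HBS1L (-0.019 to 0.91) footprints at 36 h, and 3 differences between the time points. Those were of ASCC2 (-0.69 to 0.092) and LTN1 (-0.035 to 0.45) footprints and of NEMF mRNA (-0.46 to 0.059). At 72 h same-lettered libraries share only a letter. Their deviations correlated at -0.15 in mRNA and 0.013 in footprints, and the crossed pairing was added after the data were seen. With the replicate block, calls over all genes for mRNA at 72 h went from 3 higher and 290 lower to 129 and 577 (187 and 640 crossed), for translational efficiency from 76 and 2 to 88 and 0 (216 and 33 crossed), and for footprints from 3 and 1 to 6 and 1. Other settings that moved these counts over 1.5 times were, for mRNA, median-ratio size factors (2 and 183), no count minimum (12 and 481), both library types in 1 fit (46 and 568) and the GC correction (1015 and 1395). For translational efficiency they were DESeq2 (212 and 9), median-ratio size factors (164 and 6), no count minimum (223 and 37), voom weights (129 and 7) and the GC correction (420 and 110), for footprints the GC correction (6 and 1) and the shared fit (0 and 0), and for the mRNA difference between the time points DESeq2 (9 and 204 against 0 and 55) and the GC correction (108 and 435). With 1 library left out, calls over all genes moved for footprints, mRNA and translational efficiency at both 36 and 72 h. They also moved for the mRNA and footprint differences between the time points. At 36 h the calls rose most without dCas9 d. For mRNA at 72 h nearly all were lost without Cas9 a, and most were made without dCas9 b. For translational efficiency at 72 h nearly all were lost without any 1 footprint library, and most were made without mRNA of dCas9 b. For footprints at 72 h most were made without Cas9 f. Most of these fits left 1 library in a group, so such counts rest on single libraries. With 16 to 18 counts for NEMF and HBS1L in the thinnest footprint library of 36 h, only large differences were detectable there.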
